A study of Mus musculus with 20 samples.

Results

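Liver sinusoidal and vascular endothelial cells were followed here through 33 genes that are known for these cells. The genes were taken by name, from knowledge of these cells, with earlier results of these data known. All 33 were found among the 22298 genes listed for every library, and all 33 passed the filter on low counts. They comprised 6 scavenger and endocytic receptors of the sinusoid (Stab1, Stab2, Lyve1, Fcgr2b, Mrc1 and Clec4g), 4 other sinusoidal genes (Oit3, Gpr182, Dnase1l3 and Ehd3) and 4 angiocrine ligands, that is, ligands which endothelium sends to its neighbours (Bmp2, Wnt2, Wnt9b and Rspo3). A further 5 encode receptor tyrosine kinases of the VEGF and angiopoietin systems (Kdr, Flt1, Flt4, Tek and Tie1), and 7 belong to cell junctions, adhesion and vessel guidance (Pecam1, Cdh5, Esam, Emcn, Robo4, Eng and Egfl7). The transcription factor Sox18, the enzyme Nos3 and 5 further vessel genes (Vwf, Cd34, Plvap, Ramp2 and Aqp1) completed the set. The figures label these 5 as continuous and large vessel genes, although Plvap is also a gene of fenestrated endothelium.

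Liver RNA had been sequenced for 20 male mice of the Lepr db/db strain, a model of obesity and diabetes due to a defective leptin receptor, in 4 groups of 5 biological replicates. At 5 weeks of age all of them were injected with AAV8 by the tail vein. The vector of the Vec and Vec+BBR groups carried a non-targeting shRNA, and that of the shRNA and shRNA+BBR groups carried a 4-in-1 shRNA against Pparg, the gene for the nuclear receptor PPARγ. Benzbromarone (BBR), a uricosuric drug used against gout, was given by gavage to the Vec+BBR and shRNA+BBR groups at 25 mg per kg once daily for 4 weeks, the Vec and shRNA groups received its vehicle (CMC-Na), and tissue was collected after 6 h without food. Leptin receptor deficiency and the AAV8 vector were therefore common to all 4 groups, and lean mice were not analysed here. The promoter that drove the shRNA is not given in the sources used here. AAV8 is known to enter mainly hepatocytes, and the knockdown was read from whole liver RNA, so its extent within endothelial cells was not measured.

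The endothelium of the liver sinusoid is perforated by fenestrae, lacks an organized basement membrane and removes waste macromolecules from blood through scavenger receptors. It also instructs its neighbours, with Wnt ligands and Rspo3 acting on the hepatocytes around the central vein and with BMP ligands setting the hepcidin output of hepatocytes. VEGF signaling maintains the sinusoidal state, and when it is lost the cells take on features of continuous capillaries, a change known as capillarization.

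Promoter letters are shown for 4 receptors that form related pairs and passed the threshold in different comparisons of the groups. Flt1 and Kdr are both VEGF receptors and Stab1 and Stab2 are both stabilins. Flt1 and Stab1 rose in Vec+BBR against Vec mice, whereas Kdr and Stab2 were higher in shRNA than in Vec mice. Kdr lay close to the threshold in Vec+BBR against Vec mice as well (log2 fold change 0.36, adjusted p = 0.0542 by edgeR). Stab1 was also higher in shRNA than in Vec mice without passing (log2 fold change 0.41, adjusted p = 0.0852 by edgeR). Kdr and Stab2 were called as lower in shRNA+BBR than in shRNA mice. The letters are those up to 250 bases before the RefSeq start on GRCm38.p6, without bases that GENCODE M21 places inside the gene, written 5′ to 3′ on the minus strand on which all 4 genes lie. Capitals mark matches to a searched motif on either strand. The windows are chr5:147726012-147726261 for Flt1, chr5:75978459-75978705 for Kdr, chr14:31168642-31168891 for Stab1 and chr10:87008026-87008192 for Stab2.
Flt1: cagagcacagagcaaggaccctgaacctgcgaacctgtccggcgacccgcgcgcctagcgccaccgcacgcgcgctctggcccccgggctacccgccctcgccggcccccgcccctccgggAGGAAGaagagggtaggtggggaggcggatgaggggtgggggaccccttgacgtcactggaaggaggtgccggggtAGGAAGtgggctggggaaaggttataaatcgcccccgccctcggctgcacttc
Kdr: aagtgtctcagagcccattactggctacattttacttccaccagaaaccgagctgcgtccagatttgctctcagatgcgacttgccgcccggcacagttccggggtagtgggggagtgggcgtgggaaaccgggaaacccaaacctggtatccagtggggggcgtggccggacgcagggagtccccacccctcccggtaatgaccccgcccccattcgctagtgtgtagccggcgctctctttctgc
Stab1: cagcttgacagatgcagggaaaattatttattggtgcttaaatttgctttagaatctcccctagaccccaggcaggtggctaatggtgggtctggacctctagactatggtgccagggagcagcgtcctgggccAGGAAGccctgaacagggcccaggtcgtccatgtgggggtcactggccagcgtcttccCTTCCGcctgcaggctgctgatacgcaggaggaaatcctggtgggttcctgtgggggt
Stab2: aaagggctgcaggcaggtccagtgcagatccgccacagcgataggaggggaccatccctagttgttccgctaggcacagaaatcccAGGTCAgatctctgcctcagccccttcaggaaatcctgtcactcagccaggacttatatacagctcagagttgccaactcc
The motifs searched were AGGAAG, a core bound by ETS factors, its variant CGGAAG, the motif AGATAA of GATA factors, the half-site AGGTCA of nuclear receptors and the SOX factor motif AACAAT, each also as its reverse complement, and none of the matches shown overlapped another. AGGAAG was found at bases -129 to -124 and -53 to -48 before the start of Flt1 and at bases -116 to -111 of Stab1. CGGAAG stood in reverse at bases -58 to -53 of Stab1, and AGGTCA stood at bases -164 to -159 of Stab2. A reverse AGGAAG at bases -40 to -35 of Stab2 lies in the stretch left out, and the Kdr window held none of these motifs. The window of Wnt2, which is not shown, also held none. RefSeq windows of 250 bases were at hand for 19 of the 33 genes, in 21 windows. AGGAAG occurred in 13 of these 21 windows (61.9%) and in 29.5% of all 32851 windows in the table. AGGTCA occurred in 6 (28.6%, against 14.02% of all windows), CGGAAG in 2 (9.5% against 13.6%), AACAAT in 2 (9.5% against 9.4%) and AGATAA in 0 (against 9.99%). These counts describe letters in a short window, and the GC content of the 21 windows (median 58.4%) was above that of all windows (median 52.4%).

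Total counts per library ranged from 17432904 to 25024099 (median 21409859), and 12342 genes were tested. Levels are given as CPM, the counts scaled to the TMM-normalized library size, and a count of 3 corresponded to 0.121 to 0.193 CPM. The smallest count of any of the 33 genes in any library was 13. Pparg, the targeted gene, had 16.4, 20.1, 35.9, 19.4 and 32.1 CPM in Vec mice and 7.31, 6.53, 5.96, 3.24 and 5.63 CPM in shRNA mice, without overlap (log2 fold change -2.12, SE 0.28, adjusted p = 4.47e-05; exact two-sided permutation p = 0.00794, the smallest that 252 assignments allow). With BBR, Pparg had 34.8, 29.8, 28.02, 28.1 and 38.3 CPM in Vec+BBR and 11.4, 9.99, 21.8, 18.9 and 7.19 CPM in shRNA+BBR mice, also without overlap (log2 fold change -1.20, SE 0.26, adjusted p = 0.00843). Adjusted p-values throughout are from the quasi-likelihood test of edgeR with Benjamini-Hochberg adjustment over all genes tested, and a difference was called at an adjusted p under 0.05. The libraries are from whole liver, so fewer endothelial cells and less RNA of a gene per cell cannot be told apart.

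Per transcript length, the most abundant of the 33 genes was Plvap, which encodes a protein of the diaphragms that span fenestrae and caveolae, with a mean of 25.4 FPKM over the 20 livers (range 17.3 to 34.2). Clec4g, a C-type lectin of the sinusoid, followed at 19.4 FPKM, the water channel gene Aqp1 at 17.3 FPKM, the inhibitory Fc receptor gene Fcgr2b at 15.8 FPKM, Eng, an accessory receptor for BMP and TGFβ ligands, at 13.7 FPKM, and Ehd3, a gene of endocytic membrane traffic, at 11.1 FPKM. The ranges of neighbours in this order overlapped. Among the receptor tyrosine kinases Kdr stood first, at 2.76 FPKM (range 1.72 to 4.32), close to Tie1 at 2.68 FPKM (range 1.79 to 3.78) and above the 0.713 FPKM of Flt1 (range 0.446 to 1.18) in every liver. The ligands had 1.77 FPKM for Bmp2, 0.856 FPKM for Wnt2, 0.822 FPKM for Rspo3 and 0.292 FPKM for Wnt9b, the lowest of the 33. Markers that define endothelium in any organ, Pecam1 (4.66 FPKM, range 2.82 to 7.02) and Cdh5 (4.52 FPKM, range 2.42 to 7.51), were measured in every liver. Aqp1 is also known from bile duct epithelium, and Mrc1, Stab1, Lyve1 and Fcgr2b are also known from macrophages.

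**Figure D1:**
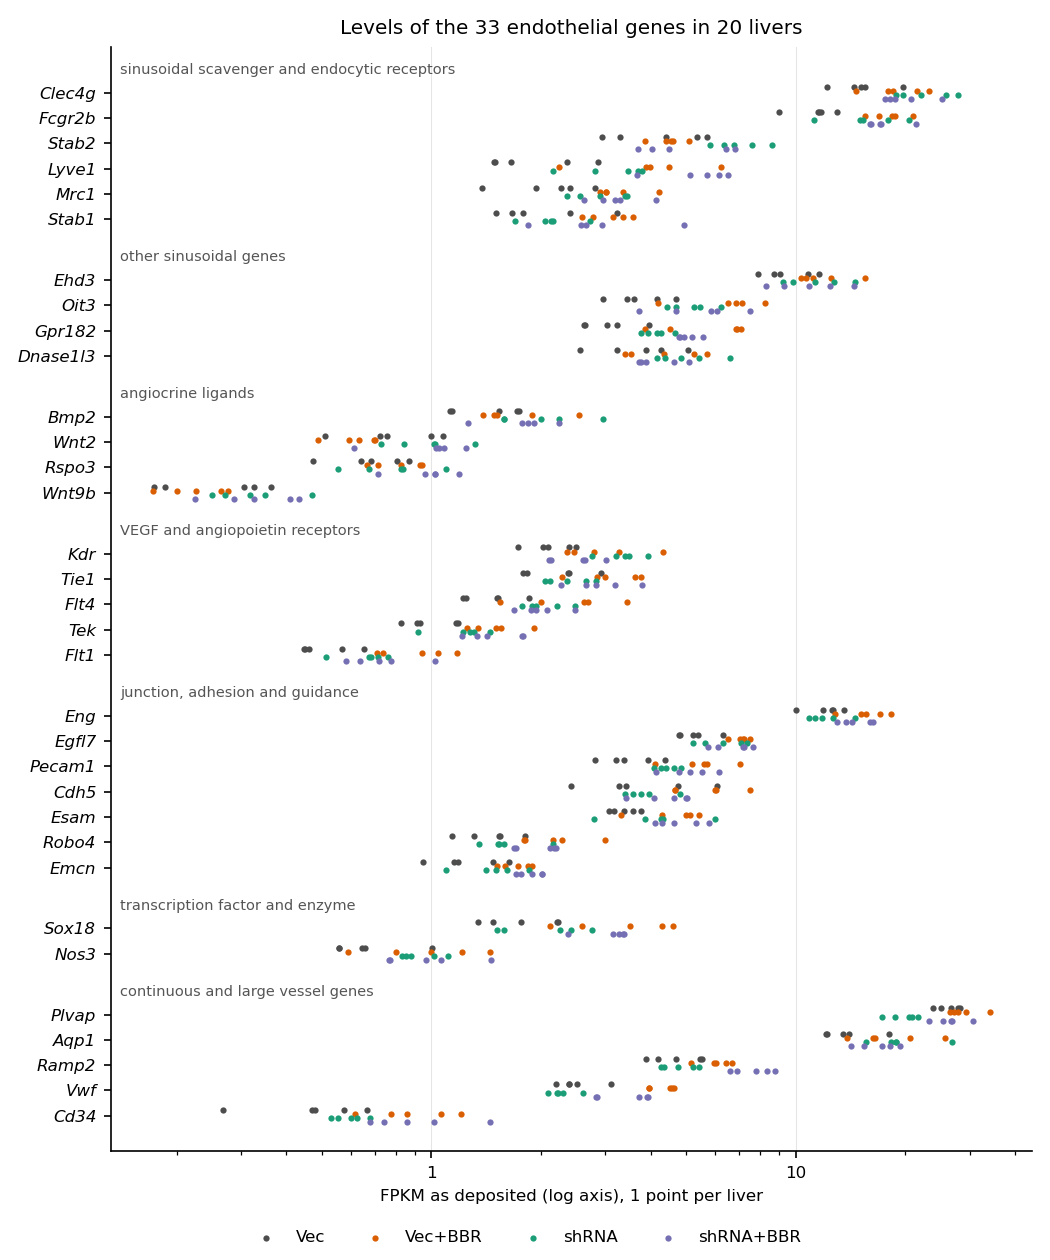
FPKM of the 33 endothelial genes as deposited, on a log axis, with 1 point per liver (20 livers, 5 per group, colored by group) and the genes sorted within their roles. Plvap averaged 25.4 FPKM and Wnt9b 0.292 FPKM, and for most genes the 4 groups overlap.

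Livers of 1 group differed from each other about as much in these genes as in genes at large. The median SD within groups was 0.236 on the log2 scale for the 33 genes and 0.226 for all genes tested. Plvap (0.11) and Eng (0.12) varied least and Lyve1 (0.38) and Cd34 (0.37) varied most. Many genes were high or low together in the same liver. Vec replicate 5 had the highest CPM of its group for 19 of the 33 genes and the lowest for 0, and shRNA replicate 5 had the highest of its group for 20 and the lowest for 0. Vec+BBR replicate 2 was the highest of its group for 19 genes, whereas Vec+BBR replicate 1 was the lowest for 18. In the shRNA+BBR group, replicate 5 was the highest for 14 genes and replicate 4 the lowest for 15.

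BBR was compared with vehicle in mice that carried the non-targeting vector, to ask how the drug changed these genes in the livers of obese mice. Vec+BBR livers had higher levels of 14 of the 33 genes than Vec livers, and lower levels of 0. Of all 12342 genes tested, 15.5% were called in either direction, that is, 7.58% of all genes tested as higher and 7.88% as lower. The genes that rose were 4 of the 6 scavenger receptors (Stab1, Lyve1, Fcgr2b and Mrc1), Oit3 and Gpr182 among the other sinusoidal genes, the receptors Flt1, Flt4 and Tek, the junction genes Pecam1 and Cdh5, the transcription factor Sox18, and the vessel genes Vwf and Cd34. None of the 4 angiocrine ligands passed the threshold. The median log2 fold change was 0.36 over the 33 genes and -0.005 over all genes tested, and 31 of the 33 lay above 0. In 5 of them (Fcgr2b, Mrc1, Flt1, Tek and Egfl7) every Vec+BBR liver was above every Vec liver, which held for 4.70% of all genes, and 0 were lower without overlap (4.24% of all genes). Egfl7 is in that count although its adjusted p was 0.15. Without Vec replicate 1 the count of higher genes fell to 9, and without Vec replicate 5 it was 17.

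The summed CPM of the 33 genes lay between 396 and 483.7 in Vec and between 484.5 and 625.9 in Vec+BBR livers. The summed CPM of 12 hepatocyte markers lay between 142600 and 172400 in Vec and between 105200 and 144800 in Vec+BBR livers. Most of this sum was Alb, with means of 109700 CPM in Vec and 91170 CPM in Vec+BBR livers, and Alb was not called. Of the 12 markers, 6 were called as lower and 3 had log2 fold changes above 0. The sums of the 33 genes did not overlap between the groups, and those of the hepatocyte markers were lower in all but 1 of the Vec+BBR livers than in any Vec liver. Of 16 markers of stellate cells and fibroblasts, 6 rose and 0 fell, and their sum moved from 286.7 to 520.5 CPM in Vec to 569.5 to 602.3 CPM in Vec+BBR livers. The part of these shifts in the values of the 33 genes was not tested.

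Among the scavenger receptors, Stab1 (ENSMUSG00000042286, chr14:31139013-31168641, minus strand), which encodes stabilin-1, a receptor for modified lipoproteins and matrix fragments, had 10.97, 10.3, 10.3, 12.4 and 14.3 CPM in Vec and 13.6, 23.6, 18.5, 19.6 and 17.98 CPM in Vec+BBR mice. In 4 of 5 Vec+BBR livers Stab1 was above all Vec livers, and the difference was 1.60-fold (log2 fold change 0.68, SE 0.16, adjusted p = 0.00624). Lyve1 (ENSMUSG00000030787, chr7:110850607-110863239, minus strand), the hyaluronan receptor of sinusoidal and lymphatic endothelium, had 5.11, 4.95, 7.26, 4.31 and 8.48 CPM in Vec and 6.75, 15.8, 12.8, 10.8 and 11.1 CPM in Vec+BBR mice. Replicate 1 of the Vec+BBR group was the only liver of that group within the Vec range of Lyve1, and the log2 fold change was the largest among the 33 genes (log2 fold change 0.92, SE 0.22, adjusted p = 0.00763). Fcgr2b (ENSMUSG00000026656, chr1:170958617-170976547, minus strand), which clears immune complexes, had 22.9, 18.9, 21.9, 20.6 and 23.9 CPM in Vec and 33.9, 32.1, 27.2, 31.4 and 29.00 CPM in Vec+BBR mice. Its groups did not overlap (log2 fold change 0.50, SE 0.12, adjusted p = 0.00718). Mrc1 (ENSMUSG00000026712, chr2:14229392-14332057, plus strand), the mannose receptor gene, had 13.03, 8.48, 11.1, 15.1 and 13.2 CPM in Vec and 16.97, 19.8, 17.9, 15.1 and 15.3 CPM in Vec+BBR mice. The highest Vec liver lay just under the lowest Vec+BBR liver for Mrc1, at the same rounded level (log2 fold change 0.48, SE 0.15, adjusted p = 0.0333), and this call was lost in 7 of 16 other settings, which were 6 other fits and the 10 fits that each left out 1 liver of the groups compared. Stab2 and Clec4g differed by less than the spread between livers, with log2 fold changes of 0.04 (95% interval -0.31 to 0.39) and 0.18 (-0.09 to 0.45).

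The remaining sinusoidal genes were split in the same comparison. Gpr182 (ENSMUSG00000058396, chr10:127747276-127751732, minus strand), which encodes an atypical receptor that binds chemokines, had 11.1, 11.9, 12.8, 12.8 and 15.97 CPM in Vec and 15.9, 24.5, 26.8, 25.5 and 17.6 CPM in Vec+BBR mice. The lowest Vec+BBR liver was just below the highest Vec liver, and the other 4 were above all Vec livers (log2 fold change 0.77, SE 0.13, adjusted p = 0.000739, the smallest adjusted p among the 33 genes in this comparison). Oit3 (ENSMUSG00000009654, chr10:59422958-59441778, minus strand), a secreted or membrane-bound zona pellucida domain protein gene marking sinusoidal endothelium, had 10.5, 9.19, 9.96, 11.3 and 13.00 CPM in Vec and 11.9, 19.6, 18.5, 18.1 and 17.5 CPM in Vec+BBR mice. Vec+BBR replicate 1 stood apart from the other 4 Vec+BBR livers in Oit3 and lay within the Vec range (log2 fold change 0.66, SE 0.16, adjusted p = 0.00703). Dnase1l3, a secreted nuclease that digests chromatin in blood, ranged from 13.9 to 24.1 CPM in Vec and from 15.9 to 23.8 CPM in Vec+BBR mice, and Ehd3 from 33.04 to 43.3 and from 38.4 to 49.7 CPM. Neither passed the threshold, with log2 fold changes of 0.09 (95% interval -0.22 to 0.40) and 0.19 (-0.09 to 0.46).

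Of the receptor tyrosine kinases, Flt1 (ENSMUSG00000029648, chr5:147561604-147726011, minus strand), the VEGF receptor that also acts as a decoy, had 3.36, 3.47, 3.24, 3.90 and 4.52 CPM in Vec and 5.17, 6.94, 6.33, 6.65 and 4.75 CPM in Vec+BBR mice. Every treated liver was above every vehicle liver (log2 fold change 0.69, SE 0.15, adjusted p = 0.00488). Flt4 (ENSMUSG00000020357, chr11:49609263-49652739, plus strand), the receptor for VEGF-C and VEGF-D, had 8.32, 8.74, 10.2, 11.6 and 9.66 CPM in Vec and 10.1, 18.9, 16.2, 15.8 and 12.3 CPM in Vec+BBR mice. Again only Vec+BBR replicate 1 fell into the Vec range (log2 fold change 0.60, SE 0.15, adjusted p = 0.00924). Tek (ENSMUSG00000006386, chr4:94739289-94874976, plus strand), the angiopoietin receptor also known as Tie2, had 4.51, 4.31, 4.36, 5.27 and 5.51 CPM in Vec and 6.37, 7.39, 5.71, 6.65 and 6.68 CPM in Vec+BBR mice. Its groups were separated by a small gap (log2 fold change 0.45, SE 0.13, adjusted p = 0.0261), and the call was lost in 5 of 16 other settings, among them those without Vec replicate 1, 2 or 3. Kdr, the main signaling receptor for VEGF-A, had 13.2, 11.7, 12.8, 14.2 and 15.1 CPM in Vec and 15.3, 22.4, 16.5, 18.2 and 13.8 CPM in Vec+BBR mice, where 4 of 5 treated livers were above all vehicle livers, and it missed the threshold (log2 fold change 0.36, SE 0.13, adjusted p = 0.0542). Tie1, an orphan receptor that pairs with Tek, ranged from 7.82 to 12.2 CPM and from 9.75 to 13.8 CPM, with a log2 fold change of 0.31 (95% interval 0.01 to 0.61, adjusted p = 0.146).

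Pecam1 (ENSMUSG00000020717, chr11:106654217-106750628, minus strand), the adhesion molecule of endothelial borders, had 10.8, 10.2, 11.3, 12.6 and 14.4 CPM in Vec and 13.6, 20.5, 18.2, 17.1 and 16.4 CPM in Vec+BBR mice. All but 1 of the treated livers were above the Vec range (log2 fold change 0.53, SE 0.11, adjusted p = 0.00324). Cdh5 (ENSMUSG00000031871, chr8:104101625-104144511, plus strand), VE-cadherin of the adherens junction, had 13.98, 11.1, 14.5, 16.5 and 19.4 CPM in Vec and 17.2, 23.7, 21.4, 20.1 and 18.4 CPM in Vec+BBR mice. Vec replicate 5 lay within the Vec+BBR range, and the call (log2 fold change 0.41, SE 0.13, adjusted p = 0.0347) was lost in 7 of 16 other settings. The guidance receptor Robo4, with a log2 fold change of 0.47 (SE 0.16, adjusted p = 0.0522), and Eng, with 0.23 (SE 0.08, adjusted p = 0.0603), lay near the threshold without passing it. Egfl7, a secreted factor of growing vessels, had 7.32, 7.26, 7.75, 6.19 and 7.07 CPM in Vec and 8.08, 8.24, 9.09, 7.90 and 8.29 CPM in Vec+BBR mice, so its groups were separate but close together (log2 fold change 0.23, SE 0.10, adjusted p = 0.15). Log2 fold changes were 0.34 (95% interval 0.03 to 0.65) for the sialomucin gene Emcn and 0.27 (-0.01 to 0.54) for the tight junction gene Esam, neither of which passed.

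Sox18 (ENSMUSG00000046470, chr2:181669836-181671640, minus strand), a transcription factor of arterial, venous and lymphatic development, had 2.56, 3.28, 3.83, 2.18 and 3.67 CPM in Vec and 3.59, 6.09, 7.37, 5.31 and 4.14 CPM in Vec+BBR mice. Replicate 1 of the treated group lay within the Vec range of Sox18 (log2 fold change 0.77, SE 0.21, adjusted p = 0.0156), and the call was lost without Vec replicate 1 and without Vec+BBR replicate 3. Nos3, the endothelial nitric oxide synthase, ranged from 2.45 to 4.16 CPM in Vec and from 2.40 to 5.24 CPM in Vec+BBR mice (log2 fold change 0.42, SE 0.20, adjusted p = 0.172). Vwf (ENSMUSG00000001930, chr6:125546774-125686679, plus strand), the von Willebrand factor stored in Weibel-Palade bodies of larger vessels, had 8.87, 10.9, 9.81, 11.1 and 16.8 CPM in Vec and 14.4, 21.9, 20.4, 23.3 and 20.2 CPM in Vec+BBR mice. Vec replicate 5 stood above the other Vec livers and above the lowest Vec+BBR liver, and Vwf rose 1.74-fold (log2 fold change 0.80, SE 0.16, adjusted p = 0.00269). Cd34 (ENSMUSG00000016494, chr1:194938819-194961279, plus strand), a sialomucin of continuous capillaries and of progenitor cells, had 1.25, 1.35, 1.52, 0.659 and 1.70 CPM in Vec and 1.62, 1.88, 2.62, 1.78 and 2.97 CPM in Vec+BBR mice. Its counts were few, 1 treated liver lay within the Vec range, and its call (log2 fold change 0.74, SE 0.25, adjusted p = 0.045) was lost in 10 of 16 other settings. Plvap differed by less than the spread between livers, with 56.7, 54.3, 58.8, 49.9 and 57.2 CPM in Vec and 57.8, 59.5, 52.1, 54.6 and 53.3 CPM in Vec+BBR mice and a log2 fold change of 0.00 (SE 0.08, 95% interval -0.16 to 0.16). Ramp2, the partner of the adrenomedullin receptor, and Aqp1 had log2 fold changes of 0.30 (95% interval 0.05 to 0.54) and 0.27 (-0.01 to 0.54) that did not pass.

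None of the 4 angiocrine ligands was called in these mice, and neither were Stab2, Clec4g, Kdr and Tie1 among the receptors. The intervals of Bmp2 and Rspo3 held the median of 0.36 over the 33 genes. Bmp2, which acts on hepatocytes in iron regulation, ranged from 4.27 to 6.61 CPM in Vec and from 4.85 to 7.93 CPM in Vec+BBR mice (log2 fold change 0.14, 95% interval -0.26 to 0.54). Rspo3, which strengthens Wnt signals around the central vein, ranged from 1.67 to 2.73 and from 1.93 to 2.99 CPM (0.10, -0.27 to 0.48). Wnt2 was the only one of the 33 genes with a log2 fold change under -0.5, with 2.40, 1.86, 1.23, 2.43 and 1.74 CPM in Vec and 1.15, 1.25, 1.33, 1.47 and 1.55 CPM in Vec+BBR mice. Vec replicate 3 was the low one of its group, and the difference did not pass the threshold (log2 fold change -0.51, SE 0.21, adjusted p = 0.109), although without that liver it did. Wnt9b, the other Wnt of the central vein, ranged from 0.834 to 1.75 and from 0.812 to 1.24 CPM (log2 fold change -0.38, SE 0.25, adjusted p = 0.318).

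**Figure D2:**
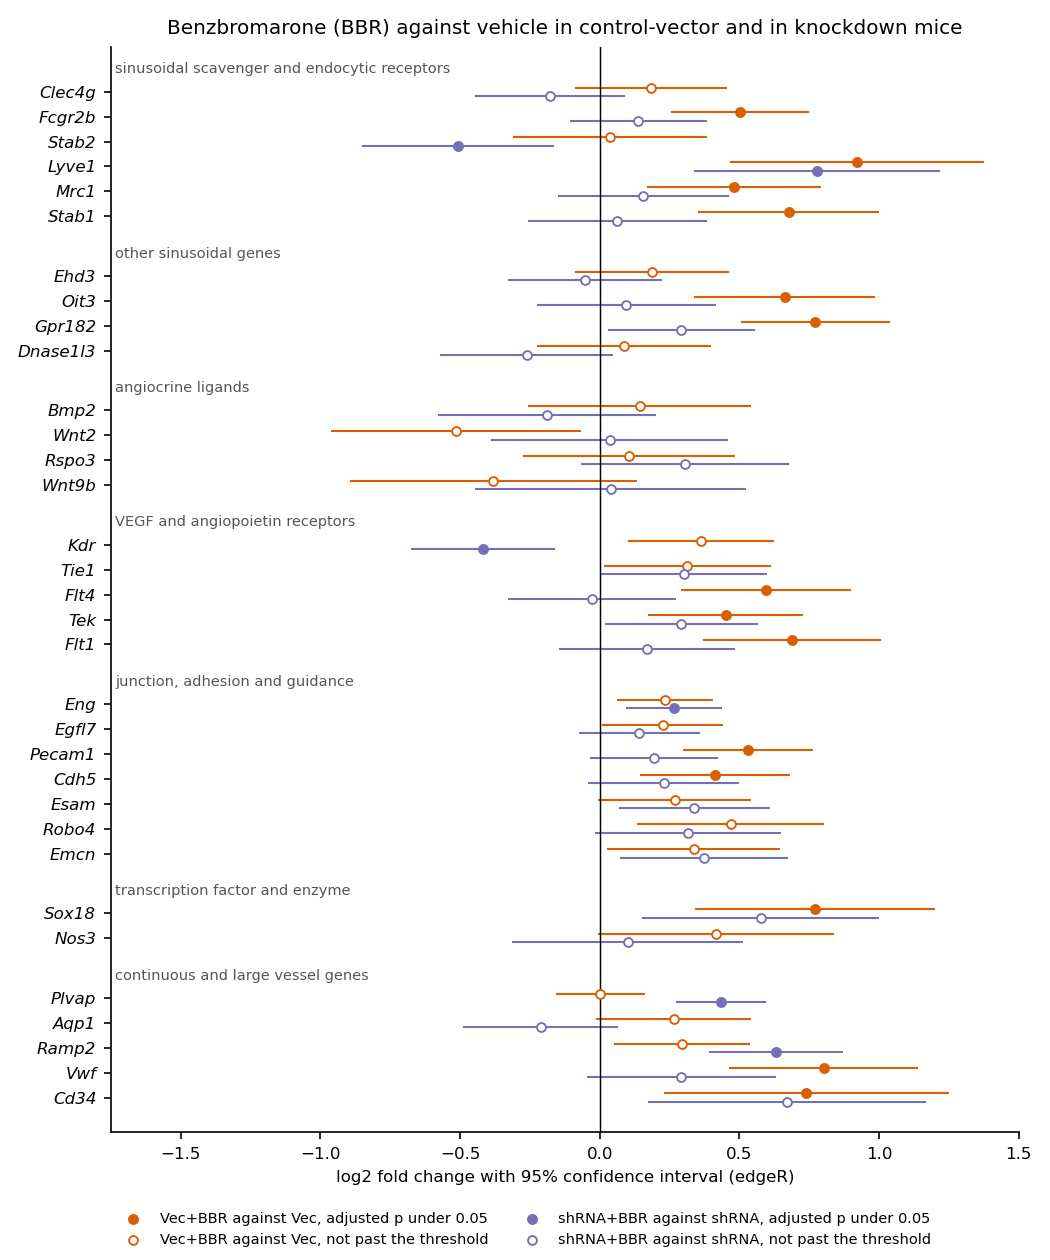
Log2 fold changes of the 33 genes between BBR and vehicle in mice with the non-targeting vector (Vec+BBR against Vec) and with the Pparg shRNA (shRNA+BBR against shRNA), with 95% confidence intervals, from 5 livers per group. Filled points passed an adjusted p of 0.05 (14 higher genes in the first comparison, 4 higher and 2 lower genes in the second).

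The same drug comparison was made in mice with the Pparg shRNA, to ask whether these genes respond to BBR when the nuclear receptor is reduced. Pparg itself was higher with BBR in these mice, with a mean of 13.87 CPM in shRNA+BBR against 5.733 CPM in shRNA livers and 1 shRNA+BBR liver within the shRNA range (2.42-fold, log2 fold change 1.28, SE 0.28, adjusted p = 0.00773), and it stayed below every Vec+BBR liver. In Vec+BBR against Vec mice Pparg was not called (log2 fold change 0.36, 95% interval -0.18 to 0.90). The part of this difference in the values of the 33 genes was not tested. In shRNA+BBR livers 4 genes were higher (Lyve1, Eng, Plvap and Ramp2) and 2 were lower (Stab2 and Kdr) than in shRNA livers, where 15.6% of all genes tested were called in either direction (8.36% higher, 7.28% lower). The median log2 fold change was 0.17 over the 33 genes and 0.01 over all genes, and 25 of the 33 lay above 0. Groups without overlap were found, all as higher, for Lyve1, Gpr182, Plvap and Ramp2, a pattern that held for 5.79% of all genes (5.58% in the other direction). Lyve1 was the only one of the 33 genes called as higher with BBR in both settings.

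Lyve1 had 10.1, 10.4, 10.9, 6.05 and 8.001 CPM in shRNA and 17.3, 10.98, 16.8, 14.6 and 18.1 CPM in shRNA+BBR mice. The lowest treated liver was only just above the highest vehicle liver (log2 fold change 0.78, SE 0.21, adjusted p = 0.0207), and the call was lost without shRNA replicate 4 or 5 or shRNA+BBR replicate 3. Plvap (ENSMUSG00000034845, chr8:71497765-71511752, minus strand) had 34.5, 40.3, 40.5, 36.2 and 42.2 CPM in shRNA and 59.1, 52.1, 53.99, 45.5 and 51.2 CPM in shRNA+BBR mice. The groups were apart by more than 3 CPM, and all but 1 of the treated livers lay above the lowest Vec liver (log2 fold change 0.44, SE 0.08, adjusted p = 0.00366). Ramp2 (ENSMUSG00000001240, chr11:101246028-101259546, plus strand) had 5.48, 5.02, 5.03, 5.96 and 6.29 CPM in shRNA and 8.87, 10.6, 8.67, 7.21 and 7.73 CPM in shRNA+BBR mice. It rose 1.55-fold without overlap (log2 fold change 0.63, SE 0.12, adjusted p = 0.00382), and the calls of Plvap and Ramp2 were kept in all 16 other settings. Eng (ENSMUSG00000026814, chr2:32646595-32682669, plus strand) had 38.1, 41.9, 36.5, 39.1 and 48.5 CPM in shRNA and 53.6, 45.6, 49.01, 44.9 and 52.1 CPM in shRNA+BBR mice. Replicate 5 of the shRNA group lay among the treated livers, and the small difference in Eng (log2 fold change 0.26, SE 0.08, adjusted p = 0.0367) lost its call in 9 of 16 other settings.

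Stab2 (ENSMUSG00000035459, chr10:86841198-87008025, minus strand), the main hyaluronan clearance receptor of the sinusoid, went the other way, with 30.5, 32.9, 27.98, 35.97 and 41.5 CPM in shRNA and 29.6, 19.1, 21.8, 17.7 and 30.7 CPM in shRNA+BBR mice. Replicates 1 and 5 of the treated group lay within the shRNA range of Stab2 (log2 fold change -0.51, SE 0.17, adjusted p = 0.0431). Kdr (ENSMUSG00000062960, chr5:75932827-75978458, minus strand) had 20.1, 15.9, 19.04, 20.1 and 22.8 CPM in shRNA and 15.2, 13.1, 15.8, 12.3 and 17.2 CPM in shRNA+BBR mice. The lowest shRNA liver was the only one to overlap the treated livers (log2 fold change -0.42, SE 0.12, adjusted p = 0.0297). Neither call was lost when the normalization or the test was changed, but leaving out 1 liver of the shRNA or shRNA+BBR group ended that of Stab2 in 7 of 10 cases and that of Kdr in 6 of 10. Of the genes that had risen with BBR in Vec mice, Gpr182 had 15.6, 14.5, 16.9, 15.99 and 18.1 CPM in shRNA and 21.4, 21.3, 19.4, 18.6 and 18.7 CPM in shRNA+BBR mice, without overlap but short of the threshold (log2 fold change 0.29, SE 0.13, adjusted p = 0.114). Stab1 ranged from 12.4 to 21.4 CPM and from 13.97 to 19.1 CPM (log2 fold change 0.06, 95% interval -0.26 to 0.38), Flt4 from 10.8 to 15.2 and from 10.9 to 15.1 CPM (-0.03, -0.33 to 0.27), and Vwf from 10.7 to 13.6 and from 10.2 to 17.2 CPM (0.29, -0.05 to 0.63). Sox18 (log2 fold change 0.58, adjusted p = 0.0589) and Cd34 (0.67, adjusted p = 0.0595) lay near the threshold, beside 0.77 and 0.74 in Vec mice. Medians by role were 0.26 for junction, adhesion and guidance genes and 0.44 for continuous and large vessel genes (0.34 and 0.30 in Vec mice). They were 0.10 for scavenger receptors, 0.02 for other sinusoidal genes and 0.17 for receptor tyrosine kinases (0.49, 0.43 and 0.45 in Vec mice).

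Whether the response to BBR differed between the 2 settings was tested as an interaction. No member of the set passed by edgeR (0 of 33, and 12 at an unadjusted p under 0.05), against 0.146% of all genes tested (0.0729% higher, 0.0729% lower, and 18.5% at an unadjusted p under 0.05). DESeq2 called 1 of the 33 as higher and 1 as lower, against 1.93% of the 17365 genes in its fit. The difference between the log2 fold changes (shRNA setting minus Vec setting) was below 0 for 25 of the 33 genes, with a median of -0.24, against 0.01 over all genes. Kdr had the smallest adjusted p (log2 difference -0.78, 95% interval -1.15 to -0.41, adjusted p = 0.065), followed by Plvap (log2 difference 0.43, 95% interval 0.21 to 0.66, adjusted p = 0.0888). These were also the 2 genes that passed in DESeq2. Estimates for Flt4 (log2 difference -0.62, 95% interval -1.05 to -0.20, adjusted p = 0.135), Gpr182 (log2 difference -0.48, 95% interval -0.86 to -0.10, adjusted p = 0.176) and Stab1 (log2 difference -0.61, 95% interval -1.07 to -0.16, adjusted p = 0.159) were below 0 with intervals that did not reach 0, and none of them passed the adjusted threshold. Vec+BBR, Vec, shRNA and shRNA+BBR livers each enter several of the comparisons, so that the comparisons are not independent of each other.

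Knockdown of Pparg was compared with the non-targeting vector in vehicle-treated mice, to ask what reduced PPARγ does to these genes without the drug. In shRNA livers Stab2, Fcgr2b, Clec4g and Kdr were higher and Plvap was lower than in Vec livers. These were 4 higher and 1 lower of 33 genes, and 13.2% of all genes tested were called (5.29% higher, 7.89% lower). The median log2 fold change was 0.21, against -0.01 over all genes, and 29 of the 33 lay above 0. Stab2 and Kdr were higher without overlap (3.95% of all genes) and Plvap was lower without overlap (5.01% of all genes). Their 3 calls were kept in all 16 other settings, that of Clec4g was lost in 3 and that of Fcgr2b in 10.

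Stab2 had 21.8, 17.7, 15.2, 27.4 and 26.5 CPM in Vec and 30.5, 32.9, 27.98, 35.97 and 41.5 CPM in shRNA mice. The lowest shRNA liver lay just above the highest Vec liver, and the level was 1.55-fold higher (log2 fold change 0.64, SE 0.17, adjusted p = 0.0149). Clec4g (ENSMUSG00000074491, chr8:3707064-3720651, minus strand) had 20.04, 22.1, 16.1, 24.5 and 18.3 CPM in Vec and 24.5, 22.8, 27.4, 31.1 and 33.9 CPM in shRNA mice. Vec replicate 4 reached into the shRNA range of Clec4g (log2 fold change 0.47, SE 0.13, adjusted p = 0.0208), and the call was lost without Vec replicate 3 or shRNA replicate 4 or 5. Fcgr2b had 26.6, 19.7, 26.5, 31.2 and 35.1 CPM in shRNA mice, where replicate 2 lay within the Vec range (log2 fold change 0.36, SE 0.12, adjusted p = 0.0465). The other scavenger receptors Stab1, Lyve1 and Mrc1 had log2 fold changes of 0.41 (95% interval 0.09 to 0.74), 0.59 (0.13 to 1.04) and 0.35 (0.04 to 0.66), with adjusted p-values of 0.0852, 0.0827 and 0.126. Summed over the 6 scavenger receptors, CPM lay between 81.75 and 104.7 in Vec and between 110.8 and 155.1 in shRNA livers.

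Kdr had 13.2, 11.7, 12.8, 14.2 and 15.1 CPM in Vec and 20.1, 15.9, 19.04, 20.1 and 22.8 CPM in shRNA mice. All knockdown livers were above all Vec livers (log2 fold change 0.55, SE 0.13, adjusted p = 0.00601). Flt1, the other VEGF-A receptor, ranged from 3.24 to 4.52 CPM in Vec and from 3.46 to 5.04 CPM in shRNA mice (log2 fold change 0.28, 95% interval -0.05 to 0.60), and Flt4 (log2 fold change 0.39, SE 0.15, adjusted p = 0.0828) and Tek (log2 fold change 0.21, SE 0.13, adjusted p = 0.308) also did not pass. Plvap had 56.7, 54.3, 58.8, 49.9 and 57.2 CPM in Vec and 34.5, 40.3, 40.5, 36.2 and 42.2 CPM in shRNA mice, a gap of more than 7 CPM between the groups. It fell by 0.52 on the log2 scale (SE 0.08, adjusted p = 0.000161), the smallest adjusted p of any of the 33 genes in any comparison. Pecam1 (log2 fold change 0.26, 95% interval 0.02 to 0.49), Cdh5 (-0.01, -0.29 to 0.26) and Eng (-0.10, -0.27 to 0.08), markers of endothelium at large, did not pass. Among the ligands, log2 fold changes lay between 0.05 for Rspo3 and 0.42 for Bmp2, and none passed.

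With BBR in both arms, shRNA+BBR livers differed from Vec+BBR livers in 1 of the 33 genes, against 8.15% of all genes tested (3.31% higher, 4.84% lower). The median log2 fold change was -0.03 over the 33 genes and -0.004 over all genes, and 0 genes of the set had groups without overlap (3.28% of all genes as higher, 5.19% as lower). The gene was Wnt2 (ENSMUSG00000010797, chr6:17988940-18030585, minus strand), with 1.15, 1.25, 1.33, 1.47 and 1.55 CPM in Vec+BBR and 2.38, 2.40, 2.42, 1.37 and 2.69 CPM in shRNA+BBR mice. Replicate 4 of the shRNA+BBR group stood apart from its group and lay within the Vec+BBR range (log2 fold change 0.73, SE 0.21, adjusted p = 0.0356). At these levels the call of Wnt2 was lost in 11 of 16 other settings, with adjusted p-values between 0.0116 and 0.0816. The other 3 ligands had log2 fold changes of 0.61 (95% interval 0.11 to 1.11) for Wnt9b, 0.25 (-0.12 to 0.62) for Rspo3 and 0.08 (-0.31 to 0.48) for Bmp2. Ramp2 lay near the threshold (log2 fold change 0.36, SE 0.11, adjusted p = 0.0555), and Vwf was the lowest of the estimates, at -0.42 (SE 0.16, adjusted p = 0.112).

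**Figure D3:**
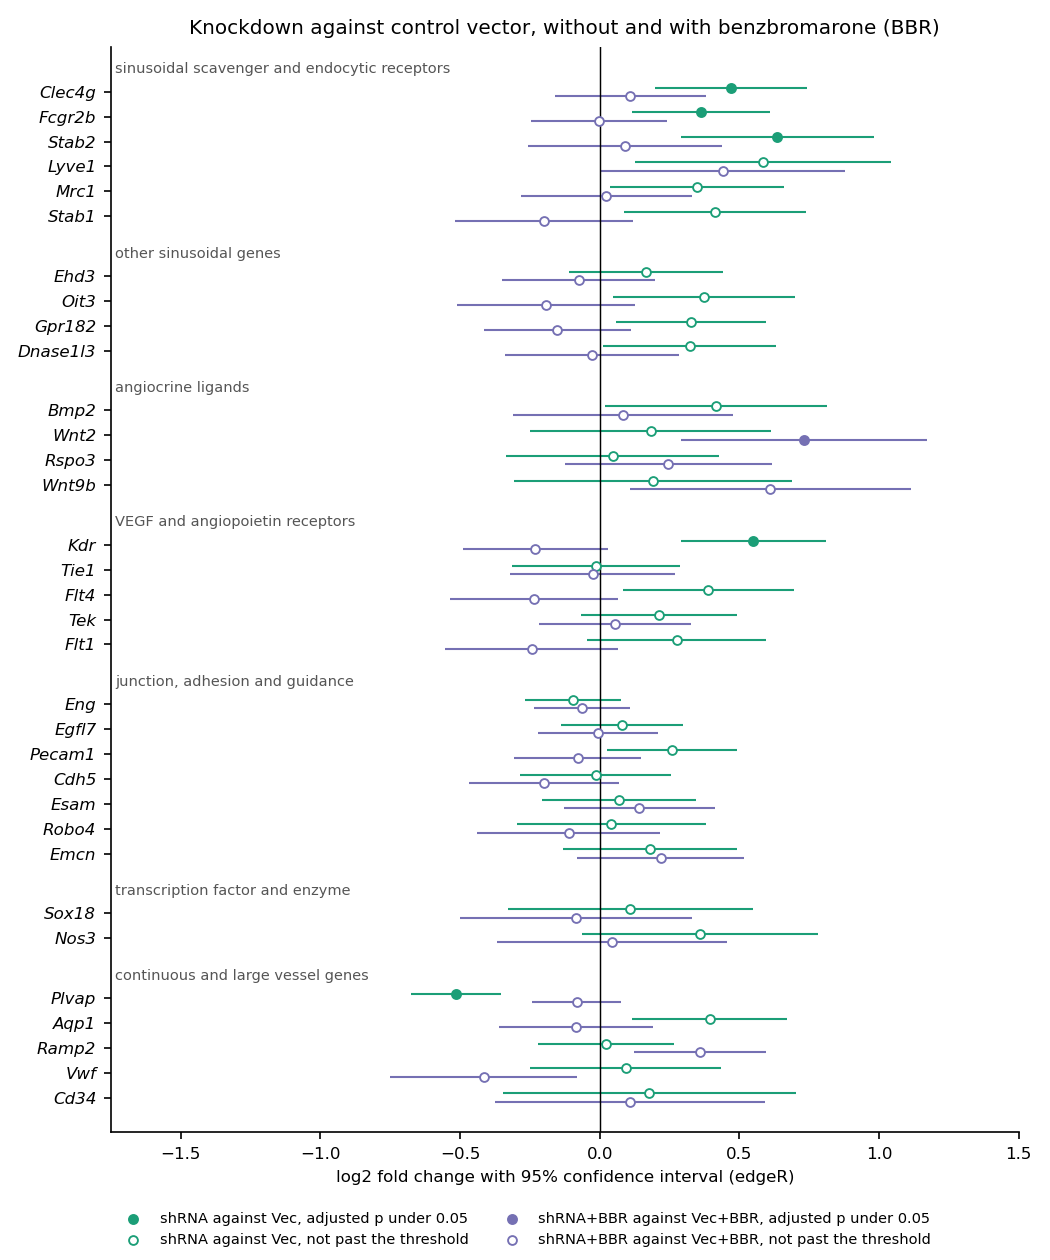
Log2 fold changes of the 33 genes between the Pparg shRNA and the non-targeting vector, with vehicle (shRNA against Vec) and with BBR (shRNA+BBR against Vec+BBR), with 95% confidence intervals, from 5 livers per group. Filled points passed an adjusted p of 0.05, which were 4 higher genes and Plvap as lower with vehicle and Wnt2 alone with BBR.

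**Figure D4:**
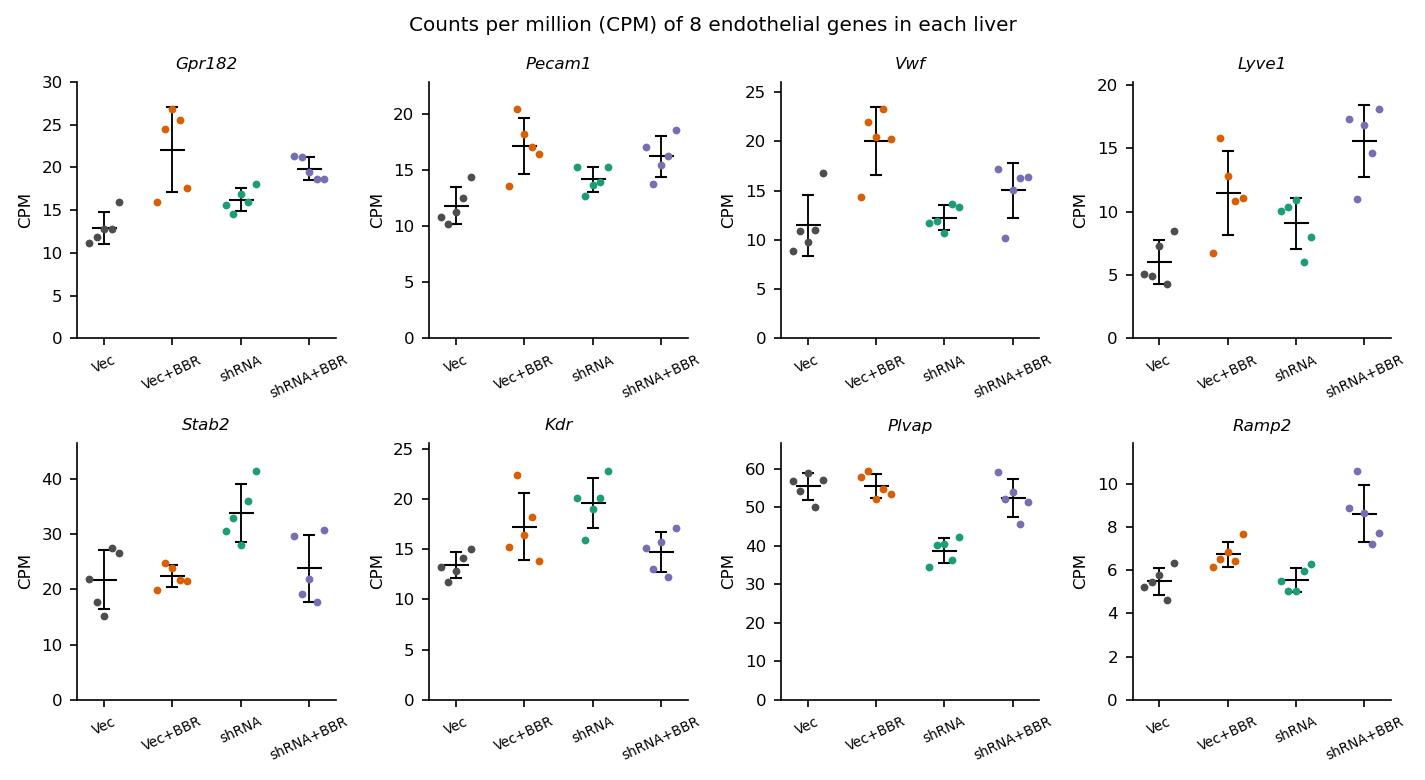
CPM of 8 of the genes in each liver (points, 5 per group), with the group mean and SD as a bar. Gpr182, Pecam1, Vwf and Lyve1 rose in Vec+BBR against Vec mice, Stab2 and Kdr were higher and Plvap lower in shRNA than in Vec mice, and Ramp2 was higher in shRNA+BBR than in shRNA mice.

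The partners of these genes were read from lists of the pathways in which they act. Of all genes tested, 7.58% were called higher and 7.88% lower in Vec+BBR against Vec, and 5.29% and 7.89% in shRNA against Vec. The shares were 3.31% and 4.84% in shRNA+BBR against Vec+BBR and 8.36% and 7.28% in shRNA+BBR against shRNA. These shares stand beside the counts of all lists below. Of 16 tested genes of the VEGF, angiopoietin and HGF pathway that are not among the 33, 5 rose and 0 fell in Vec+BBR against Vec mice. They included Vegfb, a VEGF family ligand, which rose from 6.83 ± 3.87 to 14.5 ± 1.15 CPM (mean ± SD, n = 5; log2 fold change 1.08, SE 0.25, adjusted p = 0.00571), Angpt2, a Tek ligand that opposes Angpt1 (log2 fold change 1.31, SE 0.32, adjusted p = 0.00933), the kinase gene Prkca (log2 fold change 0.59, SE 0.15, adjusted p = 0.00892) and Nrp2, a coreceptor of Flt4 (log2 fold change 1.06, SE 0.30, adjusted p = 0.0213). In shRNA against Vec mice Vegfb fell (log2 fold change -0.93, SE 0.26, adjusted p = 0.0215) and Vegfa, the main ligand of Kdr, rose from 26.9 ± 2.78 to 32.9 ± 1.85 CPM (log2 fold change 0.29, SE 0.08, adjusted p = 0.0218). With BBR in shRNA mice Vegfb rose (log2 fold change 1.24, SE 0.26, adjusted p = 0.00618), while Plcg1 and Met fell. Met, the HGF receptor gene, and Prkca fell in shRNA+BBR against Vec+BBR mice. In the interaction 0 of the 16 passed.

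Further pathway lists concerned the ligands. Of 21 tested genes of the BMP pathway, 2 fell in Vec+BBR against Vec mice, the hepcidin gene Hamp (log2 fold change -1.21, SE 0.33, adjusted p = 0.0169) and Id2 (log2 fold change -0.48, SE 0.16, adjusted p = 0.0426), and 0 rose. This count of lower genes was near the share of all genes tested that were called as lower, 7.88%. In shRNA against Vec mice 3 rose, namely the coreceptor gene Hjv (log2 fold change 0.58, SE 0.12, adjusted p = 0.00416), the sinusoidal ligand Bmp6 (log2 fold change 0.65, SE 0.17, adjusted p = 0.0166) and the inhibitor Smad7 (log2 fold change 0.81, SE 0.24, adjusted p = 0.0274). In shRNA+BBR against Vec+BBR mice 4 rose, the BMP response genes Id1 (log2 fold change 1.13, SE 0.24, adjusted p = 0.00643), Id2 and Id3 and again Smad7, whereas Bmp2 itself was called in none of the comparisons. BBR in shRNA mice raised only Gdf2, a ligand of the Eng complex (log2 fold change 0.43, SE 0.11, adjusted p = 0.0152). Of 26 tested genes of the Wnt and R-spondin pathway and its targets around the central vein, 10 fell and 0 rose in Vec+BBR against Vec mice, led by Notum (log2 fold change -1.04, SE 0.16, adjusted p = 0.000388), Cyp1a2 (log2 fold change -1.60, SE 0.25, adjusted p = 0.00046), Lect2 (log2 fold change -1.07, SE 0.17, adjusted p = 0.000557) and Oat (log2 fold change -2.02, SE 0.33, adjusted p = 0.000674). In shRNA against Vec mice 8 of them fell, led by Cyp2e1 (log2 fold change -1.14, SE 0.18, adjusted p = 0.000196), Notum (log2 fold change -0.94, SE 0.16, adjusted p = 0.000552) and Glul (log2 fold change -0.64, SE 0.11, adjusted p = 0.000671), and 2 rose, among them the receptor gene Fzd6. Between shRNA+BBR and Vec+BBR mice 0 of the 26 were called, and between shRNA+BBR and shRNA mice 1 rose, the transcription factor Tbx3 (log2 fold change 0.38, SE 0.11, adjusted p = 0.0267), and 2 fell. Tbx3 was also the only gene of these lists that passed in the interaction (log2 difference 0.86, SE 0.16, adjusted p = 0.0292). The ligands Wnt2, Wnt9b and Rspo3 were not called in any of the comparisons in which genes of this list were called.

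Other genes of endothelium were counted in the same way. In Vec+BBR against Vec mice 7.58% of all genes tested were called as higher, and in shRNA+BBR against shRNA mice 8.36%. Of 15 tested endothelial transcription factors, 6 rose and 0 fell in Vec+BBR against Vec mice, with Sox17, a factor of arterial endothelium, at the head (log2 fold change 1.41, SE 0.27, adjusted p = 0.00186), followed by the ETS factors Erg (log2 fold change 0.85, SE 0.22, adjusted p = 0.013) and Fli1 (log2 fold change 0.69, SE 0.19, adjusted p = 0.018) and by Meis2 (log2 fold change 0.56, SE 0.16, adjusted p = 0.0242). Sox17 was near the low end of the counts, with means of 0.31 CPM in Vec and 0.83 CPM in Vec+BBR livers. In shRNA+BBR against shRNA mice 2 rose, Fli1 (log2 fold change 0.84, SE 0.19, adjusted p = 0.01) and Lyl1 (log2 fold change 1.08, SE 0.34, adjusted p = 0.0387), and in the other comparisons 0 were called. Of 29 tested genes in a list of further endothelial genes, 12 rose and 0 fell in Vec+BBR against Vec mice. The list was led by Calcrl, the receptor that Ramp2 accompanies (log2 fold change 0.93, SE 0.17, adjusted p = 0.00122), Cd93 (log2 fold change 1.00, SE 0.19, adjusted p = 0.00187), Mcam (log2 fold change 1.05, SE 0.22, adjusted p = 0.00285) and the adhesion receptor Adgrl4 (log2 fold change 0.82, SE 0.17, adjusted p = 0.00309). Adgrl4 and Adgrf5 were also the 2 genes of this list that rose in shRNA against Vec mice (log2 fold change 0.67, SE 0.17, adjusted p = 0.0123 and log2 fold change 0.66, SE 0.18, adjusted p = 0.0211, respectively). In shRNA+BBR against shRNA mice Ecscr, Cd93 and Icam2 rose and Ace fell (log2 fold change -1.30, SE 0.33, adjusted p = 0.0165). The median log2 fold change of this list in Vec+BBR against Vec mice was 0.49, beside 0.36 for the 33 genes. Of 10 tested Notch pathway genes, the ligand gene Dll1 fell in Vec+BBR against Vec mice (log2 fold change -0.59, SE 0.18, adjusted p = 0.033), Notch2 and Rbpj fell in shRNA+BBR against Vec+BBR mice, and Rbpj fell in shRNA+BBR against shRNA mice. Of all genes tested, 7.88%, 4.84% and 7.28% were called as lower in these comparisons, in that order.

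Markers of the other cells of the liver were counted beside these results, and no list held a marker at 0 in all 20 livers. Of all genes tested, 7.58% were called higher and 7.88% lower in Vec+BBR against Vec mice. The shares were 8.36% and 7.28% in shRNA+BBR against shRNA mice and 5.29% and 7.89% in shRNA against Vec mice. Of 12 hepatocyte markers, 6 fell and 0 rose in Vec+BBR against Vec mice, 3 fell and 0 rose in shRNA+BBR against shRNA mice, 1 rose and 0 fell in shRNA+BBR against Vec+BBR mice, and 0 were called in shRNA against Vec mice. Serpina1c was at the head of the first (log2 fold change -1.52, SE 0.21, adjusted p = 0.000163). Stellate cell and fibroblast markers rose with BBR in both settings, 6 of 16 each, with Rgs5 (log2 fold change 1.04, SE 0.17, adjusted p = 0.00067) and Col1a2 (log2 fold change 1.13, SE 0.27, adjusted p = 0.00817) first in Vec mice and Col1a1 first in shRNA mice (log2 fold change 1.70, SE 0.33, adjusted p = 0.00463), and Col1a1 fell in shRNA against Vec mice (log2 fold change -1.12, SE 0.33, adjusted p = 0.0303). Of 18 Kupffer cell and macrophage markers, 4 rose and 2 fell in Vec+BBR against Vec mice. The risers were led by Gpnmb (log2 fold change 1.96, SE 0.40, adjusted p = 0.00261) and Itgam (log2 fold change 1.45, SE 0.33, adjusted p = 0.00611), and one of those that fell was Marco, a scavenger receptor of Kupffer cells (log2 fold change -3.03, SE 0.62, adjusted p = 0.00287). Itgam was low, with means of 0.47 CPM in Vec and 1.32 CPM in Vec+BBR livers. BBR in shRNA mice raised 6 of them and lowered 1, and in shRNA against Vec mice 2 fell. The macrophage sum lay between 245.3 and 568.6 CPM in Vec, 347.3 and 530.4 in Vec+BBR, 301.9 and 408.5 in shRNA and 399 and 553.5 in shRNA+BBR livers, overlapping throughout. Of the members also known from macrophages, Stab1, Lyve1, Fcgr2b and Mrc1 rose in Vec+BBR against Vec mice, and of the members also known from bile duct epithelium Aqp1 did not, whereas the 12 cholangiocyte markers summed to 38.48 to 64.14 CPM in Vec and 71.64 to 120.6 CPM in Vec+BBR livers with 2 of 8 tested called as higher. Lymphocyte markers summed to 1.03 to 10.8 CPM in Vec and 2.37 to 4.28 CPM in Vec+BBR livers, with 3 of 7 tested lower. These 3 (Nkg7, Cd3g and Cd8a) were near the level of a count of 3, with means of 0.25, 0.17 and 0.13 CPM in Vec+BBR livers. Neutrophil markers summed to 1.29 to 10.4 CPM in Vec and 3.26 to 7.28 CPM in Vec+BBR livers, with 1 of 4 higher, and erythroid markers to 617.9 to 1321 and 743.2 to 2307 CPM, with 1 of 7 lower. The part of these cells in the values of the 33 genes was not tested.

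**Figure D5:**
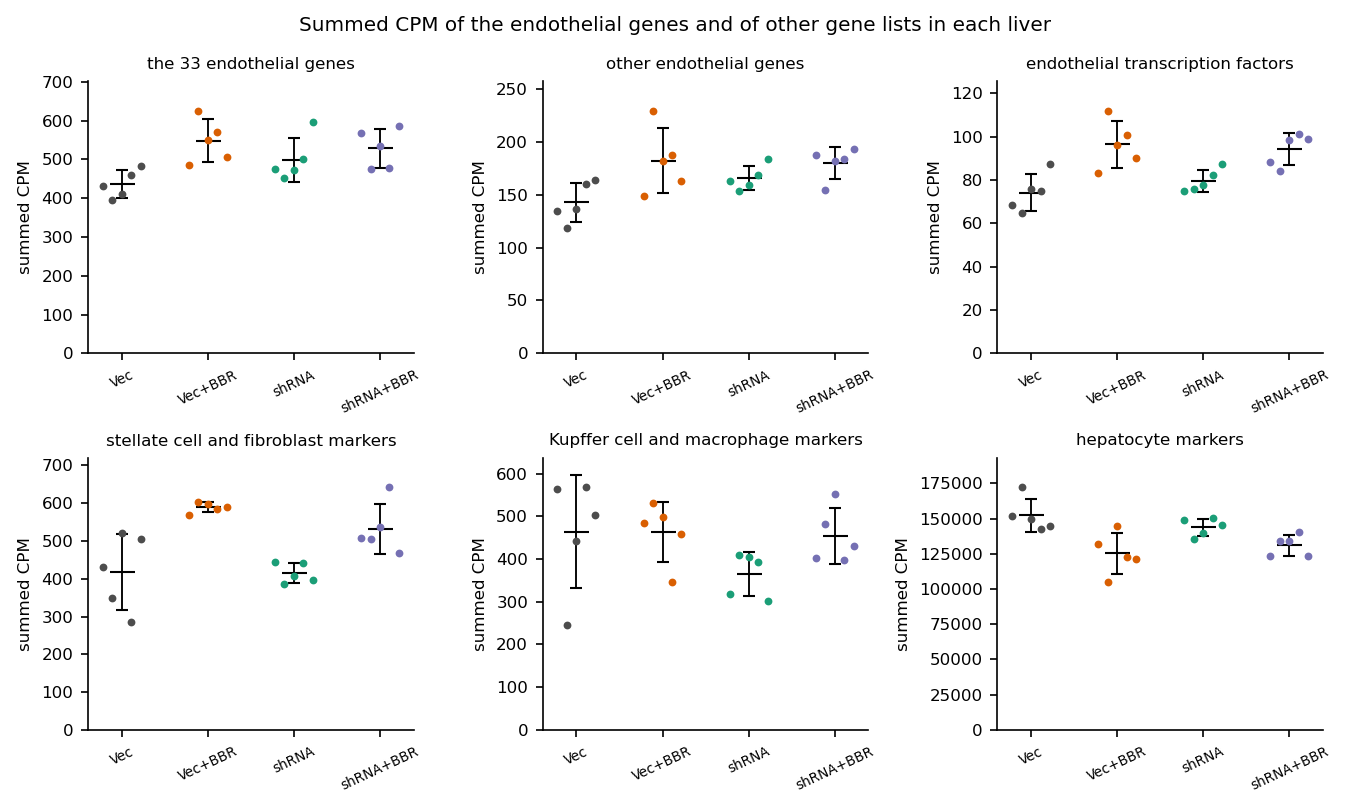
Summed CPM in each liver (points, 5 per group, with the group mean and SD as a bar) of the 33 genes, of further endothelial genes and of markers of other cells. The sum of the 33 genes was 396 to 483.7 CPM in Vec, 484.5 to 625.9 in Vec+BBR, 451.3 to 595.6 in shRNA and 476.6 to 585.5 in shRNA+BBR livers.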

How the data were processed

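Livers of 20 mice (4 groups of 5 biological replicates, 1 library each) were sequenced by the authors as poly(A)-selected RNA (NEBNext Ultra, Illumina). The deposited expected counts per gene were made by the authors and were not normalized; between 91.9% and 93.29% of them were whole. The deposited FPKM were scaled by the authors for transcript length and library size, and were used only to compare levels between genes. The build named in the submitters' processing notes is mm10; the aligner and counter are not given in the sources used here. Genes follow GENCODE M21 on GRCm38 and promoters follow RefSeq on GRCm38.p6, and 76 entries have no symbol.

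Counts were rounded and fitted with edgeR 4.0.16 (glmQLFit and glmQLFTest, TMM factors 0.873 to 1.141, filterByExpr with a minimum count of 10 and a minimum total of 15) in R 4.3.3, with a mean for each of the 4 groups, no other covariate, and Benjamini-Hochberg adjustment over 12342 genes at 0.05. Intervals are 95% confidence intervals of this fit. The code was tested on simulated data. DESeq2 1.42.0, other size factors, other filters, fits of only the groups compared, a replicate block and leaving out each liver were alternatives. The labels give no batches. None of the 40 pairs of libraries within groups agreed within counting noise (smallest chi-square, per gene, 15.1). The genes and lists were chosen with earlier results of these data known. Genes called in at least 1 comparison are described per liver; of other lists, at most 4 called genes per comparison are named, by smallest p.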

Additional observations from a re-analysis of the deposited data

Results flagged for a closer look

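Within the 5 livers of a group, 1 liver stood far from the other 4 in 7 cases out of 136 tested combinations of gene and group (by Dixon's criterion at 95%, which chance alone meets in about 1 in 20 groups). Vec+BBR replicate 1 had 11.93 CPM of Oit3, below the next value of 17.47 CPM. Replicate 4 of the shRNA+BBR group had 1.369 CPM of Wnt2 (next value 2.375), and replicate 1 of that group had 2.133 CPM of Rspo3 (next value 3.012). High values were 7.709 CPM of Robo4 in shRNA replicate 5 (next value 5.468), 16.82 CPM of Vwf in Vec replicate 5 (next value 11.05), and, both in Vec replicate 4, 4.158 CPM of Nos3 (next value 2.906) and 47.51 CPM of Aqp1 (next value 37.93).

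The response to BBR differed between the shRNA and the Vec setting, by the interaction test, for Tbx3, a Wnt target gene of hepatocytes around the central vein. Its log2 difference was 0.86 (SE 0.16, adjusted p = 0.0292 by edgeR), and BBR changed Tbx3 by -0.47 in the Vec and by 0.38 in the shRNA setting on the log2 scale.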

How the results depend on the processing

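The median log2 fold changes of the 33 genes kept their direction and size in every alternative run, except that the median near 0 of shRNA+BBR against Vec+BBR lay between -0.08 and 0.03 when single livers were left out. With 1 liver of the groups compared left out at a time, the count of higher genes in Vec+BBR against Vec ranged from 9 when Vec replicate 1 was left out to 17 when Vec replicate 5 was, and that of lower genes between 0 and 1 (Wnt2, without Vec replicate 3). In shRNA against Vec it lay between 2 (without Vec replicate 3 or shRNA replicate 4 or 5) and 6 (without Vec replicate 5) higher, with 1 lower throughout. In shRNA+BBR against Vec+BBR it lay between 0 and 2 higher and 0 and 1 lower (Vwf, without Vec+BBR replicate 1), and of these 10 fits only that without shRNA+BBR replicate 4 kept the call of Wnt2. In shRNA+BBR against shRNA it lay between 2 (without shRNA replicate 4 or shRNA+BBR replicate 3) and 4 higher, and between 0 (without shRNA replicate 1, 4 or 5 or shRNA+BBR replicate 2, 3 or 4) and 2 lower. Livers of the other groups share the estimate of the spread, and leaving them out gave up to 6 higher in shRNA+BBR against shRNA (without Vec replicate 4; 5 without Vec+BBR replicate 1), 6 higher in shRNA against Vec (without Vec+BBR replicate 1) and 2 higher in shRNA+BBR against Vec+BBR (without Vec replicate 3 or 4). In the interaction it lay between 0 and 1 in each direction (Plvap without Vec replicate 4, Kdr without Vec replicate 4, Vec+BBR replicate 1 or shRNA+BBR replicate 5). Higher genes in shRNA+BBR against Vec+BBR numbered 2 in DESeq2 and with at least 10 counts in every sample (Ramp2 and Wnt2), and 0 without a filter. DESeq2 called 1 higher (Plvap) and 1 lower gene (Kdr) in the interaction, where it called 336 of all genes and edgeR 18. Fitting only the Vec and Vec+BBR groups lowered the calls among all genes from 1908 to 1179. The causes were not tested.

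Correlations of same-numbered livers passed 0.1 in 1 of 5 pairs in Vec+BBR against Vec, 3 of 5 in shRNA+BBR against shRNA and 0 of 5 in both others. Livers of different numbers were not compared in this way, so whether replicate numbers pair the mice was not settled. The main fit used no pairing. With a replicate block the counts were 14 higher in Vec+BBR against Vec, 4 higher and 1 lower in shRNA against Vec, 0 in shRNA+BBR against Vec+BBR, and 4 higher and 2 lower in shRNA+BBR against shRNA. With 5 livers per group, small differences such as those of Eng and Cdh5 stood near the threshold, and counts of Wnt2, Wnt9b and Cd34 were low. Outside the set, the same held for counts of Sox17, Lyl1, Itgam, Angpt2, Nkg7, Cd3g and Cd8a.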
